A study of Mus musculus with 4 samples.

Results

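The 36 genes described here encode lysosomal enzymes, lysosomal membrane proteins and the proton pump that acidifies the lysosome. They were taken from a list of symbols: a gene was a member when an array feature that is not a control carried its symbol, and where a gene had more than 1 probe the brightest represented it. All 36 were found, among 30222 genes on the array, and all 36 were well above background on all 4 arrays. The lysosome is the acidic compartment in which macrophages break down what they engulf. The vacuolar proton pump drives that acidity, with a V1 sector in the cytosol that splits ATP and a V0 sector in the membrane that carries protons. Soluble hydrolases then cut glycans, lipids and peptides, and membrane transporters return the products to the cytosol.

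The cells were resident peritoneal macrophages of C57BL/6 background mice, either wild type or deficient in CD163, the macrophage receptor for haptoglobin bound to haemoglobin. Every culture was first kept for 2 days in RPMI medium with fetal bovine serum. The treated cultures then received lipopolysaccharide (LPS), a bacterial cell wall product, at 100 ng/mL for 1 day, and the untreated ones received none. Each genotype thus gave an untreated and an LPS-treated culture, 4 groups in all, with 1 array each. The number of mice behind an array, their age and sex, and how the deletion was made are not given in the sources used here. No difference below has a replicate check or a p-value.

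A level is the log2 processed intensity of a probe minus the 75th percentile of its array, so 0 stands for that percentile. A difference is a level on 1 array minus the level on another, on the same log2 scale. The scanner software's own error model gave an error of 0.20 for a member's difference, which covers the array and not the spread between cultures. Across the arrays the 75th percentile of intensity ran from 909.6 to 1324.7, 24721 to 26535 genes were well above background, and 0 spots were saturated. The LPS markers Nos2 and Il1b were higher with LPS by 5.60 and 6.32 in wild type, and by 6.69 and 6.67 in the CD163-deficient cells. Cd163 itself was at -5.47 and -5.01 in wild type and at -6.00 and -5.48 in CD163-deficient cells, dim on every array. The part of the gene that its probe reads relative to the deletion is not given in the sources used here, so it is a weak check of the genotype label. The macrophage genes Csf1r (7.37 to 7.62) and Emr1 (6.61 to 7.18), which encode the CSF1 receptor and F4/80, were high on every array. Not every marker of peritoneal macrophages was: Gata6, their identity factor, was at -0.30 without and -1.37 with LPS in wild type, and at 0.04 and -2.04 in CD163-deficient cells, and Timd4, a phagocytic receptor, was at -0.34 and 1.58, and at -0.37 and 1.18. Of the 11 macrophage genes, 3 (Cd14, Fcgr1 and Timd4) were at least 2-fold higher with LPS in each genotype and 1 (Gata6) at least 2-fold lower.

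The plot of member levels shows where each gene stood. By mean level the members lay between percentile 77.1 (Npc1) and percentile 99.7 (Lamp1) of all genes, with a median percentile of 94.8.

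**Figure D1:**
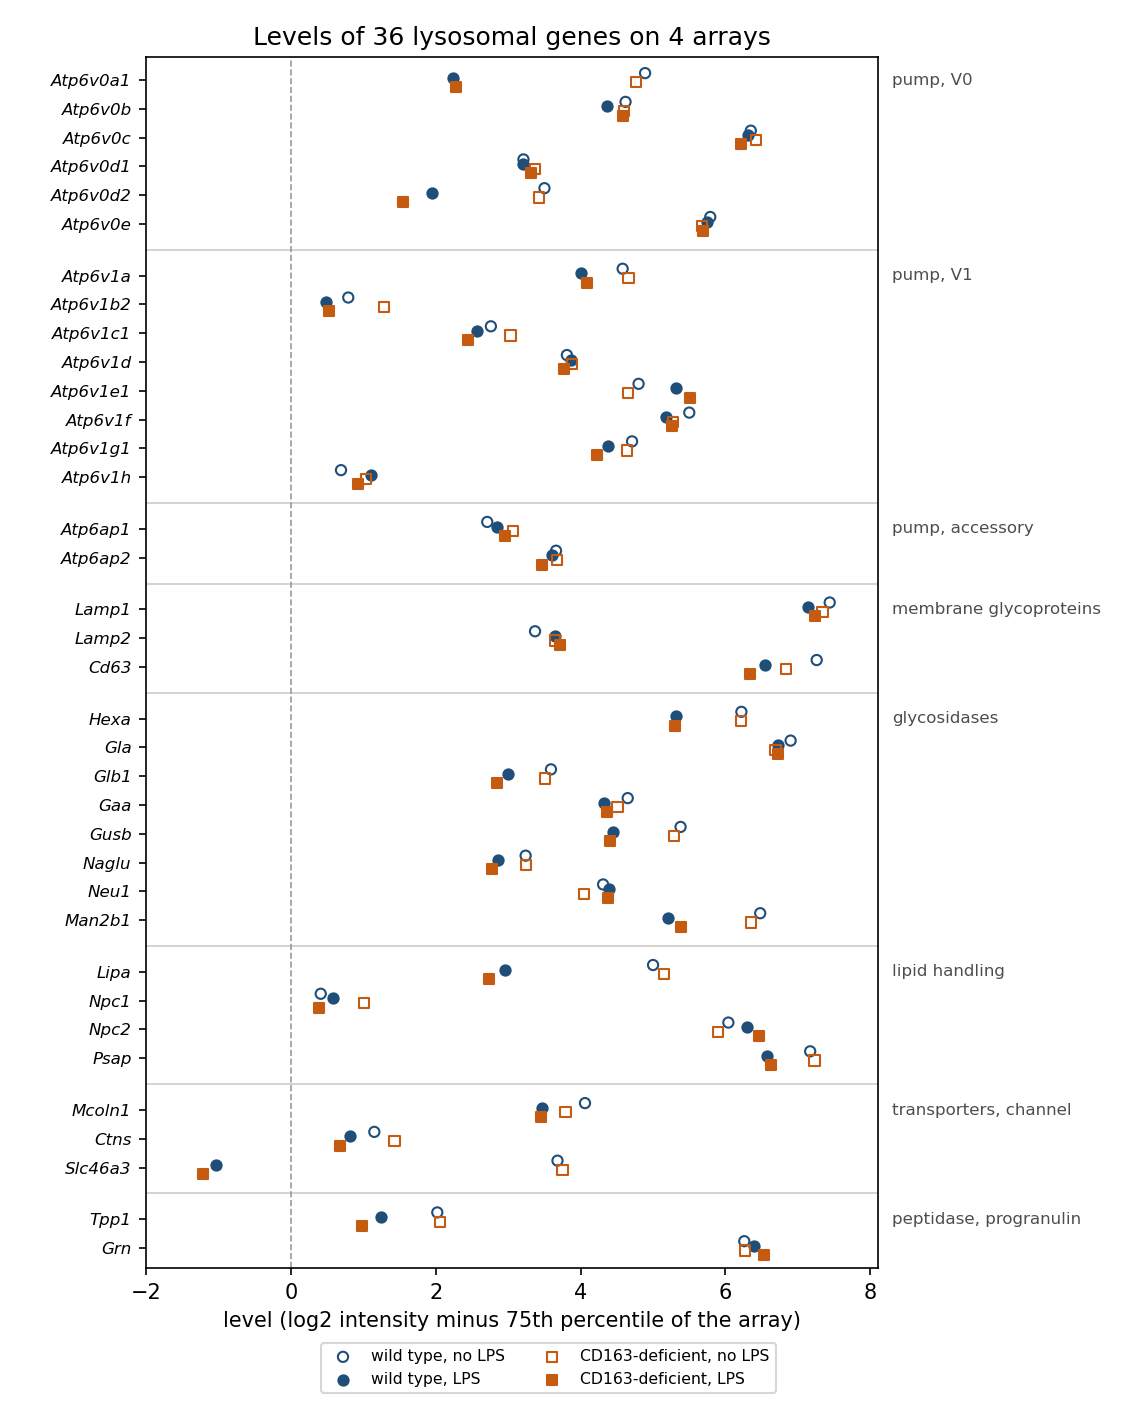
Levels of the 36 genes by role (log2 intensity minus the 75th percentile of the array) on the arrays of wild-type cells (circles) and CD163-deficient cells (squares), open without LPS and filled with LPS, 1 array each. Both filled symbols lie left of both open symbols for 24 genes and right of them for 4, and the widest gap is that of Slc46a3.

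With LPS most of the set was lower in both genotypes, and a few genes stood far below the rest. The members were chosen with earlier results of these data known, so their shares are no independent test. Slc46a3, Atp6v0a1, Lipa and Atp6v0d2 were each at least 2-fold lower with LPS in both genotypes. In wild-type cells 27 members were lower (51.6% of the 26714 genes compared were) and 9 higher (48.4%). Of these, 5 were at least 2-fold lower, where 5.09% of all genes were, and 0 were at least 2-fold higher, against 6.40%. In CD163-deficient cells 29 were lower (45.6% of 26188 genes) and 7 higher (54.4%). Again 5 were at least 2-fold lower (5.45% of all genes) and 0 reached 2-fold on the higher side (7.25%). The median member difference was -0.32 in wild type, where all genes had a median of -0.02, and -0.38 in CD163-deficient cells, where all genes had 0.04.

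Since members are bright, the same counts were taken over the 6909 genes with a mean level at least that of the dimmest member. In wild type 57.5% of these were lower by any size, 5.79% at least 2-fold lower and 9.06% at least 2-fold higher. The shares were 48.4%, 5.24% and 10.4% in the CD163-deficient cells, and the medians of the genotypes were -0.11 and 0.02. Differences past the error of 0.20 numbered 21 lower and 4 higher members in wild type, where 31.4% and 29.0% of all genes were so, and 19 lower and 4 higher in CD163-deficient cells, where the shares were 27.0% and 32.5%. Both arrays with LPS were below both arrays without for 24 members (66.7%), against 40.2% of the genes as bright and 29.3% of all 23938 genes detected on every array. Both were above for 4 members (11.1%), against 34.8% and 32.4%, and 8 members overlapped. RNA came from whole cultures, so fewer cells of a type and less RNA per cell cannot be told apart.

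The gene with the widest gap was Slc46a3, which encodes a transporter of the lysosomal membrane. Its level was 3.68 without and -1.04 with LPS in wild-type cells, and 3.75 without and -1.21 with LPS in CD163-deficient cells. The arrays without LPS lay close together and the arrays with LPS lay far below, a difference of -4.72 (26.4-fold lower) in wild type and -4.96 (31.1-fold lower) in CD163-deficient cells. No other of the 6909 genes as bright as the members had a lower LPS difference in either genotype. Its probe was annotated at chr5:148690145-148690204, minus strand, on mouse assembly mm9.

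Atp6v0a1 encodes subunit a1 of the V0 sector, the part of the pump that spans the membrane and forms the proton path. It stood at 4.89 without and 2.24 with LPS in wild type, and at 4.76 and 2.28 in CD163-deficient cells. These are differences of -2.65 (6.26-fold lower) and -2.49 (5.60-fold lower), read from a probe at chr11:100924969-100925028, plus strand (mm9). A dimmer probe, annotated to another transcript of the gene, differed by only -0.48 and -0.18, and the mean of both probes differed by -1.57 and -1.33.

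Lipa encodes the acid lipase that releases cholesterol and fatty acids from lipoproteins taken up into the lysosome. Its levels were 5.0 without and 2.95 with LPS in wild type and 5.15 and 2.73 in CD163-deficient cells. The arrays with LPS were lower by 4.15-fold (-2.05) and 5.34-fold (-2.42), on a probe at chr19:34567717-34567776, minus strand (mm9).

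The windows before the start sites of these 3 genes, which have the largest mean LPS difference in size among the members, were searched for the E-box CACGTG, the core of the element bound by TFEB and its relatives, which drive many lysosomal genes. Windows of Lamp1 and Mcoln1, chosen after their matches were seen, are printed for contrast. Each is the 250 bases before the start on the gene's strand, from RefSeq on GRCm38.p6, and capitals mark CACGTG. They lie at chr5:147894816-147895065 (minus) for Slc46a3, chr11:101010148-101010397 (plus) for Atp6v0a1, chr19:34527475-34527724 (minus) for Lipa, chr8:13158911-13159160 (plus) for Lamp1 and chr8:3500269-3500518 (plus) for Mcoln1.
Slc46a3: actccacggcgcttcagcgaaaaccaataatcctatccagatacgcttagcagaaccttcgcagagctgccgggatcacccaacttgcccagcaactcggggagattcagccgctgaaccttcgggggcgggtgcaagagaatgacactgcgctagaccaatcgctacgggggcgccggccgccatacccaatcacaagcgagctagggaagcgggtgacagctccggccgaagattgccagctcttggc
Atp6v0a1: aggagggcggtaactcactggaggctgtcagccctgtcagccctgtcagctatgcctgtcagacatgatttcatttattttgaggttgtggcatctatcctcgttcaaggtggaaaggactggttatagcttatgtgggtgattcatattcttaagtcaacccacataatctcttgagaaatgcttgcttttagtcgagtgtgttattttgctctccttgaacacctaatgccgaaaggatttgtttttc
Lipa: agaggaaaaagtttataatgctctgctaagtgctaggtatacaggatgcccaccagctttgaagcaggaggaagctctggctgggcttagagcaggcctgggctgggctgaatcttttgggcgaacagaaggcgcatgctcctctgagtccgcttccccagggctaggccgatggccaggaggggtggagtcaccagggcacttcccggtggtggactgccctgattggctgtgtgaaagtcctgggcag
Lamp1: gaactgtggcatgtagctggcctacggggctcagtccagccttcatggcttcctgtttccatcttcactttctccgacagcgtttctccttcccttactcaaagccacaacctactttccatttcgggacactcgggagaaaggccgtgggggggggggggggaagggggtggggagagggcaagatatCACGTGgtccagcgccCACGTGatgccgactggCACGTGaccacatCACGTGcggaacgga
Mcoln1: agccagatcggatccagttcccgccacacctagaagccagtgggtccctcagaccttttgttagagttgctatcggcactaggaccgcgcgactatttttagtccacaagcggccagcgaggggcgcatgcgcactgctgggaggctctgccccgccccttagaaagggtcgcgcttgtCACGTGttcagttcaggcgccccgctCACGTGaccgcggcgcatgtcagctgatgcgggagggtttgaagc

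None of the 3 windows with the largest LPS differences holds the motif, while that of Lamp1 holds 4 copies, 61, 45, 28 and 15 bases before the start, and that of Mcoln1 holds 2, 71 and 45 bases before it. The search covered 250 bases before to 50 bases after the start of the 30 members with an entry in the promoter table, leaving out Atp6v0d2, Atp6v1b2, Atp6v1c1, Atp6v1g1, Atp6v1h and Npc1. CACGTG was in a window of 10 of these 30 members (33.3%), against 8.09% of all 27025 genes with an entry and 7.15% of all 32851 windows. Since the motif reads the same on both strands, a match covers both. The longer TCACGTGA, which contains it, was found in 5 of 30 (16.7%), against 1.12% of genes, and the 10-letter CLEAR palindrome, which contains both, in 0 of 30, against 0.37% of genes. The 10 genes with CACGTG were Atp6v0b, Atp6v0d1, Atp6v0e, Atp6v1a, Lamp1, Gla, Glb1, Gaa, Naglu and Mcoln1. Their LPS differences had a median of -0.32 in wild type and -0.13 in the CD163-deficient cells, and 0 were at least 2-fold lower. The 20 genes without it had medians of -0.33 and -0.35, and 4 were at least 2-fold lower in each genotype. Of all genes compared, 5.09% (wild type) and 5.45% (CD163-deficient) were lower by that size. At such shares a count of 0 among 10 genes is not unusual. Since 20 of the 30 members lack the motif, its absence from the first 3 printed windows does not set those genes apart. Whether the motif goes with the LPS difference was not tested. A match is a description of the sequence alone.

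Within the V0 sector, the other marked difference was that of Atp6v0d2, an isoform of subunit d that is abundant in osteoclasts and in some macrophages. Its level was 3.50 without and 1.94 with LPS in wild type and 3.43 and 1.54 in CD163-deficient cells, lower by 2.95-fold (-1.56) and 3.72-fold (-1.89). A second probe of the same transcript had -1.61 and -2.96, so the probes shared the direction and parted in size in the CD163-deficient cells. The widely expressed isoform Atp6v0d1 did not share the pattern, with levels of 3.21 on both wild-type arrays and 3.37 without and 3.32 with LPS in CD163-deficient cells. Atp6v0c, the subunit of the proton-carrying ring, stayed between 6.21 and 6.42, its partner in the ring Atp6v0b between 4.37 and 4.62, and Atp6v0e, a small membrane subunit, between 5.68 and 5.79. The sector was thus split between 2 subunits far lower with LPS and 4 whose LPS differences were -0.25 or smaller in size, and its median was -0.15 in wild type and -0.13 in the CD163-deficient cells.

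The V1 sector had 0 of 8 subunits at a 2-fold difference and medians of -0.25 and -0.26. Of all genes compared, 5.09% and 5.45% were lower by that size and 6.40% and 7.25% higher, so a count of 0 among 8 is not unusual. Atp6v1a, the catalytic subunit A, was lower by a like amount in both genotypes, from 4.58 to 4.00 in wild type and from 4.66 to 4.09 in CD163-deficient cells, and its other probe had -0.70 and -0.65. Atp6v1g1, a subunit of the peripheral stalk, was also lower in both (-0.33 and -0.41). Atp6v1e1, another stalk subunit, was the member with the highest LPS difference. It stood at 4.80 without and 5.32 with LPS in wild type and at 4.65 and 5.51 in CD163-deficient cells, higher by 0.51 and 0.86. The nucleotide-binding subunit gene Atp6v1b2 had LPS differences of -0.31 and -0.77, and Atp6v1c1, which helps hold the sectors together, had -0.20 and -0.59. Atp6v1h, a subunit that regulates ATP hydrolysis, was at 0.69 without and 1.11 with LPS in wild type and at 1.03 and 0.93 in CD163-deficient cells, so the genotypes differed in sign. The rotor subunit gene Atp6v1d had 0.05 and -0.11, Atp6v1f, also of the rotor, -0.33 and -0.01, and the accessory genes Atp6ap1 (0.12 and -0.12) and Atp6ap2 (-0.04 and -0.19) lay within the error of a difference. Over all 16 pump genes the LPS median was -0.13 and -0.16, against -0.48 and -0.55 over the 20 other members. The genes as bright had -0.11 and 0.02, so in wild type the pump median was close to theirs.

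Of the membrane glycoproteins, Lamp1, a main component of the lysosomal coat whose window is printed above, was at 7.44 without and 7.14 with LPS in wild type and at 7.34 and 7.23 in CD163-deficient cells. Cd63, a tetraspanin of lysosomes and exosomes, was lower with LPS on both sides, from 7.26 to 6.55 and from 6.84 to 6.34. Lamp2 had LPS differences of 0.28 and 0.06 on its brightest probe and -0.02 and 0.33 on another, which is annotated to a different transcript, so its probes did not share an order.

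The glycosidases had LPS medians of -0.48 and -0.57, with 7 of 8 lower in wild type and 6 of 8 in CD163-deficient cells. Of all genes compared, 51.6% and 45.6% were lower, and of the genes as bright 57.5% and 48.4%. Man2b1, the acid alpha-mannosidase, was at 6.48 without and 5.21 with LPS in wild type, 2.42-fold lower (-1.28), and at 6.35 and 5.38 in CD163-deficient cells, 1.96-fold lower (-0.97). Gusb, the beta-glucuronidase, was at 5.38 and 4.44 in wild type and at 5.29 and 4.40 in CD163-deficient cells. Hexa, the alpha subunit of the hexosaminidase that clears GM2 ganglioside, was at 6.22 and 5.32, and at 6.21 and 5.30. For these 3 enzymes the genotypes had near the same level in each condition, and both arrays with LPS were lower. Under quantile normalization all 3 passed 2-fold in CD163-deficient cells (Man2b1 -1.15, Gusb -1.14, Hexa -1.10), while Man2b1 in wild type moved from -1.28 to -1.14. The Gusb values rest on its brightest probe. A dimmer probe, annotated to another transcript, differed by only -0.36 (wild type) and -0.07 (CD163-deficient). The mean of both Gusb probes differed by -0.65 and -0.48 in the same order. Glb1, the beta-galactosidase, differed by -0.59 and -0.67, Naglu, which cleaves heparan sulfate, by -0.38 and -0.46, and Gaa, which degrades glycogen, by -0.33 and -0.15. Gla, the alpha-galactosidase (-0.18 and 0.04), and Neu1, the sialidase (0.08 and 0.33), did not follow them.

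Of the genes for lipids other than Lipa, Psap, the precursor of the saposins that present sphingolipids to their hydrolases, was lower in both genotypes, from 7.17 to 6.57 in wild type and from 7.23 to 6.63 in CD163-deficient cells. Npc2 and Npc1 hand cholesterol out of the lysosome one after the other. Npc2 was higher with LPS, from 6.04 to 6.30 and from 5.90 to 6.47. Npc1 was at 0.41 without and 0.58 with LPS in wild type and at 1.01 and 0.39 in CD163-deficient cells, differences of 0.17 and -0.62. The gap between these LPS differences, -0.78, was the largest in size of any member and ran from -0.80 to -0.75 over the alternative settings, but Npc1 was also the dimmest member and 1 array per group leaves the gap untested.

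Besides Slc46a3, both genes of the channel and transporter group were lower with LPS. Mcoln1, the calcium channel TRPML1, was at 4.06 and 3.46 in wild type and at 3.79 and 3.45 in CD163-deficient cells. Ctns, the cystine exporter, was at 1.15 and 0.82, and at 1.43 and 0.67. Tpp1, a tripeptidyl peptidase, was at 2.02 and 1.24 in wild type, 1.72-fold lower (-0.78), and at 2.06 and 0.98 in CD163-deficient cells, 2.12-fold lower (-1.08). Grn, which encodes progranulin, a secreted protein that is also processed in the lysosome, was slightly higher with LPS in both, by 0.13 and 0.26.

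**Figure D2:**
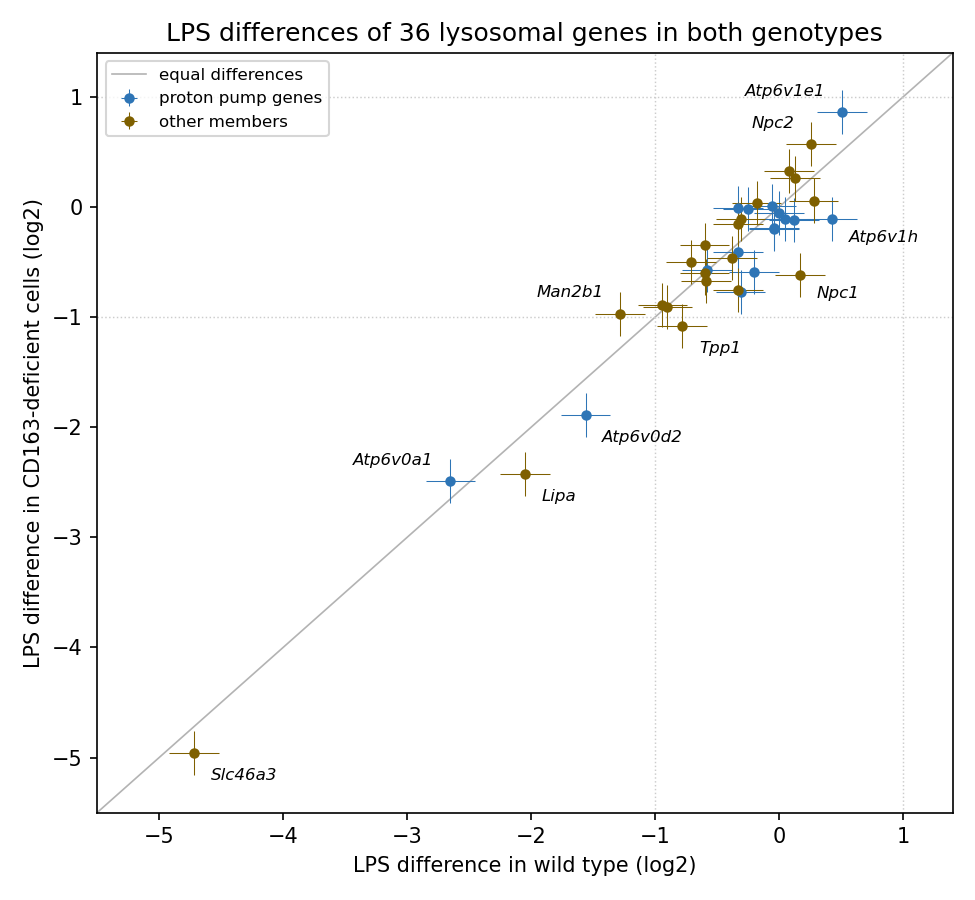
LPS difference of each of the 36 genes in CD163-deficient cells against that in wild-type cells (log2, with minus without LPS), with bars for the scanner software's error of 0.20, dotted lines at 2-fold, and the line of equal differences. The points run along that line from Slc46a3 (-4.72 and -4.96) to Atp6v1e1 (0.51 and 0.86), and Npc1 lies off it.

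The LPS comparisons of the genotypes share no array. Across the 36 genes their differences correlated with Pearson's r of 0.962 and Spearman's rho of 0.827, and r was 0.918 over the 35 genes without Slc46a3. Genes are not independent replicates, and the 6909 genes as bright gave r of 0.936. In all, 25 members were lower in both genotypes, 5 higher in both and 6 differed in sign. That is 83.3% with the same sign, close to the 79.9% of the genes as bright, while 69.4% were lower in both, against 42.9%.

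The other genes of the lysosome, listed by function, were measured the same way. On their brightest probes the shares at 2-fold were near those of all genes on the higher side and above them on the lower. All but 2 of 109 such genes in 5 lists were compared. In wild type 7 of them (6.54%, against 6.40% of all genes) had a difference of 2-fold or more on the higher side and 9 (8.41%, against 5.09%) on the lower. In CD163-deficient cells these were 9 (8.41%, against 7.25%) and 12 (11.2%, against 5.45%). In both genotypes, 6 were higher and 7 lower by that size. The higher counts include Sgsh, whose probes disagree, and without it they were 6 in wild type, 8 in CD163-deficient cells and 5 in both. The lower counts include Idua, Sort1 and Tfeb, whose other probes differed less in wild type. In the mean of their probes these genes were below 2-fold there (-0.94, -0.85 and -0.81). Sort1 was below it in CD163-deficient cells as well (-0.87). By sign, 41 were higher and 66 lower in each genotype. The plot of LPS differences by list sets them beside the members.

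Among 35 other hydrolases and activators, 4 were higher by 2-fold or more and 3 lower in wild type, and 5 and 6 in CD163-deficient cells. Without Sgsh the higher counts were 3 and 4. Acp2, a lysosomal acid phosphatase, was higher by 1.97 and 1.28. Rnaset2a, a ribonuclease whose near-identical copy Rnaset2b makes the reading uncertain, was higher by 1.61 and 1.83. Hgsnat and Idua, enzymes of heparan sulfate breakdown, were more than 2-fold lower, Hgsnat with -1.79 and -2.17, and Idua with -1.86 and -2.13 on its brightest probe but -0.01 and -0.19 on another. Pla2g15, a lysosomal phospholipase, differed by -1.66 and -1.84. The probes of Sgsh, a sulfatase of the same pathway as Hgsnat and Idua, went opposite ways, with 1.56 and 2.20 on the brighter and -1.92 and -2.05 on the dimmer, so no direction is given for it. Acp5, the tartrate-resistant phosphatase, was higher by 1.30 and 1.81, and is named after its values were seen.

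Of 29 other membrane proteins, the sialic acid exporter Slc17a5 (-2.16 and -2.29) and the ion channel Tpcn1 (-1.99 and -1.99) were lower, and the chloride exchanger Clcn7 (1.32 and 1.13) was higher. The dimmer probe of Slc17a5 had -0.49 and -2.02. Among 13 genes that deliver enzymes to the lysosome, the small mannose 6-phosphate receptor M6pr was higher, with 1.74 and 1.64, and the sorting receptor Sort1 lower, with -1.55 and -1.98, while its other probes lay between -0.58 and -0.14. Tfeb, the transcription factor of lysosomal genes, listed under its older symbol Tcfeb, was at 0.04 without and -1.13 with LPS in wild type and at 0.32 and -0.92 in CD163-deficient cells, differences of -1.16 and -1.23. Its dimmer probe had -0.45 and -1.91, but at levels between -5.68 and -3.77 and well above background on only 3 of the 4 arrays. The list that holds Tfeb, mTORC1 and their regulators had 22 genes compared, with 0 at least 2-fold higher (6.40% and 7.25% of all genes) and 2 lower (5.09% and 5.45%) in each genotype. Only Tfeb was lower by that size in both. The other was Tsc1 in wild type (-1.36, against -0.88 in CD163-deficient cells) and Flcn in CD163-deficient cells (-1.09, against -0.79 in wild type).

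Both other isoforms of pump subunit a described here were higher with LPS, where Atp6v0a1 was lower. Atp6v0a2 was at -1.41 without and -0.27 with LPS in wild type and at -1.25 and -0.35 in CD163-deficient cells, higher by 1.14 and 0.90. Tcirg1, the a3 isoform, which is best known from osteoclasts, was at 4.06 and 4.39 and at 4.09 and 4.59, higher by 0.33 and 0.50. The 8 other pump genes compared, isoforms of several subunits, had medians of 0.21 and 0.19, and the wild-type median turned to -0.07 with normexp background correction.

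**Figure D3:**
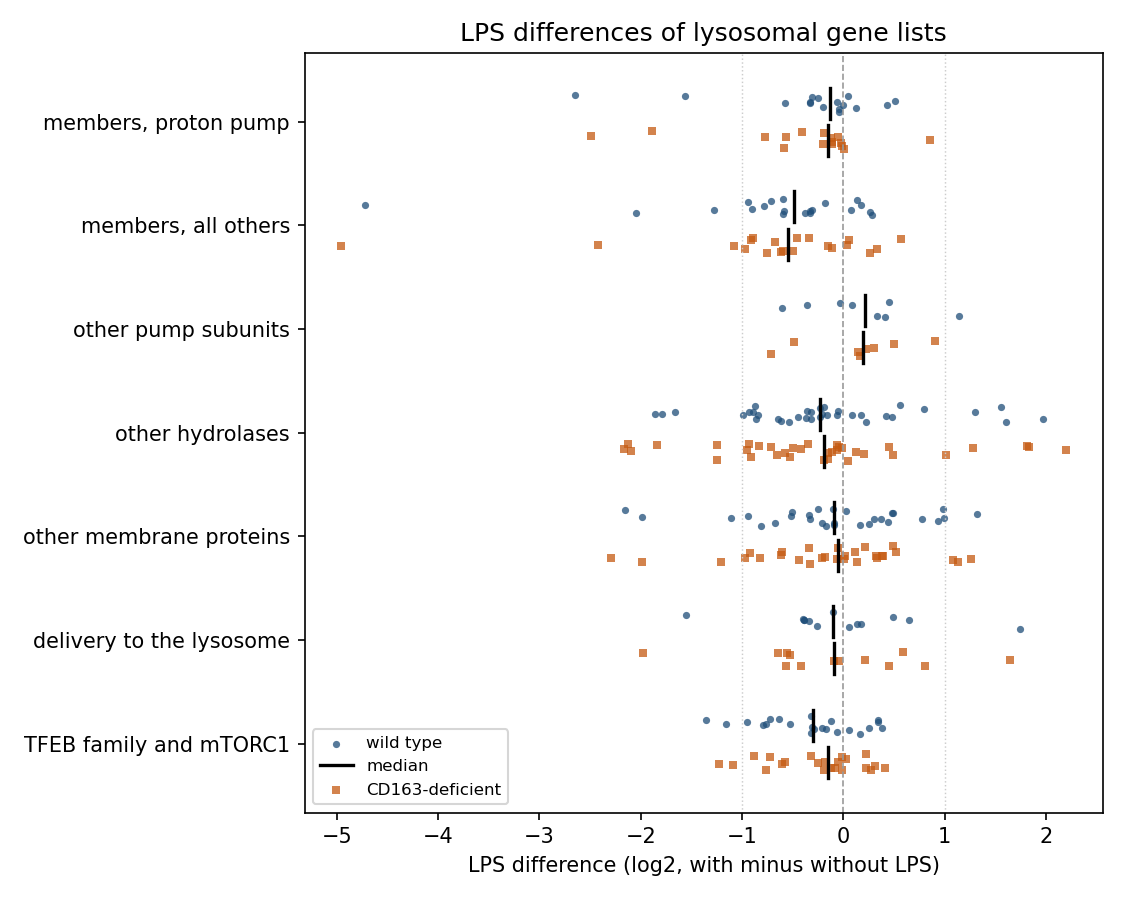
LPS differences (log2, with minus without LPS) of the 36 genes, split into the proton pump and all others, and of 5 lists of other lysosomal genes, with 1 point per gene, circles for wild type, squares for CD163-deficient cells and a bar at each median. The members that are not pump genes have medians of -0.48 and -0.55, and the lists of other genes together hold points beyond 2-fold (dotted lines) on both sides.

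Marker genes of other cells also differed with LPS. Levels of a list were summed on the linear scale, as multiples of the array's 75th percentile. That sum over 8 neutrophil genes went from 5.84 without to 20.6 with LPS in wild type and from 5.09 to 23.1 in CD163-deficient cells, with 3 of 7 compared at least 2-fold higher in each, while Ngp was well above background on no array. These 3 were S100a8 (2.47 and 2.95), Camp (3.90 and 3.73) and Ly6g (2.23 and 2.05). The others did not share this: S100a9 had 0.04 and -0.32, Elane -0.22 and -0.04, Mpo -0.26 and -0.62 and Cxcr2 -0.97 and -0.19, and the median of the 7 was 0.04 in wild type and -0.04 in the CD163-deficient cells. Of 11 mesothelial and fibroblast genes, LPS arrays were the lower for 9 in wild type and 10 in the CD163-deficient cells, against 51.6% and 45.6% of all genes. Their linear sums were 64.1 without and 79.5 with LPS in wild type, and 58.1 and 51.1 in CD163-deficient cells. The linear sums of B cell genes (2.33 to 3.08), T and NK cell genes (4.79 to 5.25) and mast cell genes (0.788 to 0.884) varied less, against 613 to 825 for 11 macrophage genes. What part these genes' cells had in the lysosomal differences was not tested.

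Between genotypes few genes of the whole array differed by 2-fold, and the members did not stand apart in this. Without LPS, 18 members were higher in CD163-deficient cells and 18 lower, where 41.0% and 59.0% of 25958 genes were, and 0 differed by 2-fold, where 1.26% of genes were higher and 1.16% lower by that size. The median was 0.00, against -0.07 for all genes. With LPS, 16 were higher and 20 lower (52.9% and 47.1% of 26706 genes), again 0 by 2-fold (1.25% and 1.06%), with medians of -0.01 and 0.01. Among the genes as bright the shares at 2-fold were smaller, 0.376% and 0.174% without LPS and 0.0145% and 0.0868% with it. By sign, 66.7% of the genes as bright were lower without LPS and 35.5% with it, with medians of -0.11 and 0.05. The members were thus lower less often than these genes without LPS and more often with it.

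Without LPS, 12 members passed the error of 0.20, 7 higher and 5 lower in CD163-deficient cells, where 17.7% and 28.8% of all genes did. The higher ones were Npc1 (0.60), Atp6v1b2 (0.50), Atp6ap1 (0.35), Atp6v1h (0.35), Lamp2 (0.29), Ctns (0.28) and Atp6v1c1 (0.27). Of these 7, 4 were pump genes, and so were 16 of all 36 members. The median over all pump genes was 0.04. The lower ones were Cd63 (-0.42), Mcoln1 (-0.27), Neu1 (-0.26), Atp6v1f (-0.24) and Gla (-0.21). With LPS, 5 passed, Atp6v0b (0.21) on the higher side, and Atp6v0d2 (-0.40), Tpp1 (-0.26), Lipa (-0.22) and Cd63 (-0.21) on the lower, where 14.5% and 14.7% of all genes did. The second probe of Atp6v0d2 had -0.85 there and 0.50 without LPS. Without LPS the other probe of Lamp2, annotated to a different transcript, had -0.17 and the dim other probe of Mcoln1 had 0.40, so the probes of these genes went opposite ways. Cd63 was the 1 gene past the error in both conditions, lower each time in CD163-deficient cells. The genotype comparisons share their arrays with the LPS comparisons and are no separate evidence for a difference in LPS response.

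The split of signs between genotypes depended on how the arrays were scaled. Under quantile normalization 31 members were higher and 5 lower without LPS, with a median of 0.14, and 10 were higher and 26 lower with LPS, with a median of -0.10. The sign of 15 members turned over the settings tried without LPS and that of 11 with LPS, against 4 in each LPS comparison. Of the 12 members named above without LPS, 11 kept their sign under every setting, and Mcoln1 did not. Lamp2 kept it in the mean of its probes although its probes differ in sign. Size was kept less well. Under quantile normalization all 5 lower ones were within the error of 0.20 (-0.15 to -0.01), while the 7 higher ones stayed past it (0.32 to 0.62). With LPS, Atp6v0b (0.14) fell within the error and the 4 lower ones stayed past it. The median difference between the LPS responses, -0.03, was likewise -0.26 under quantile normalization.

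**Figure D4:**
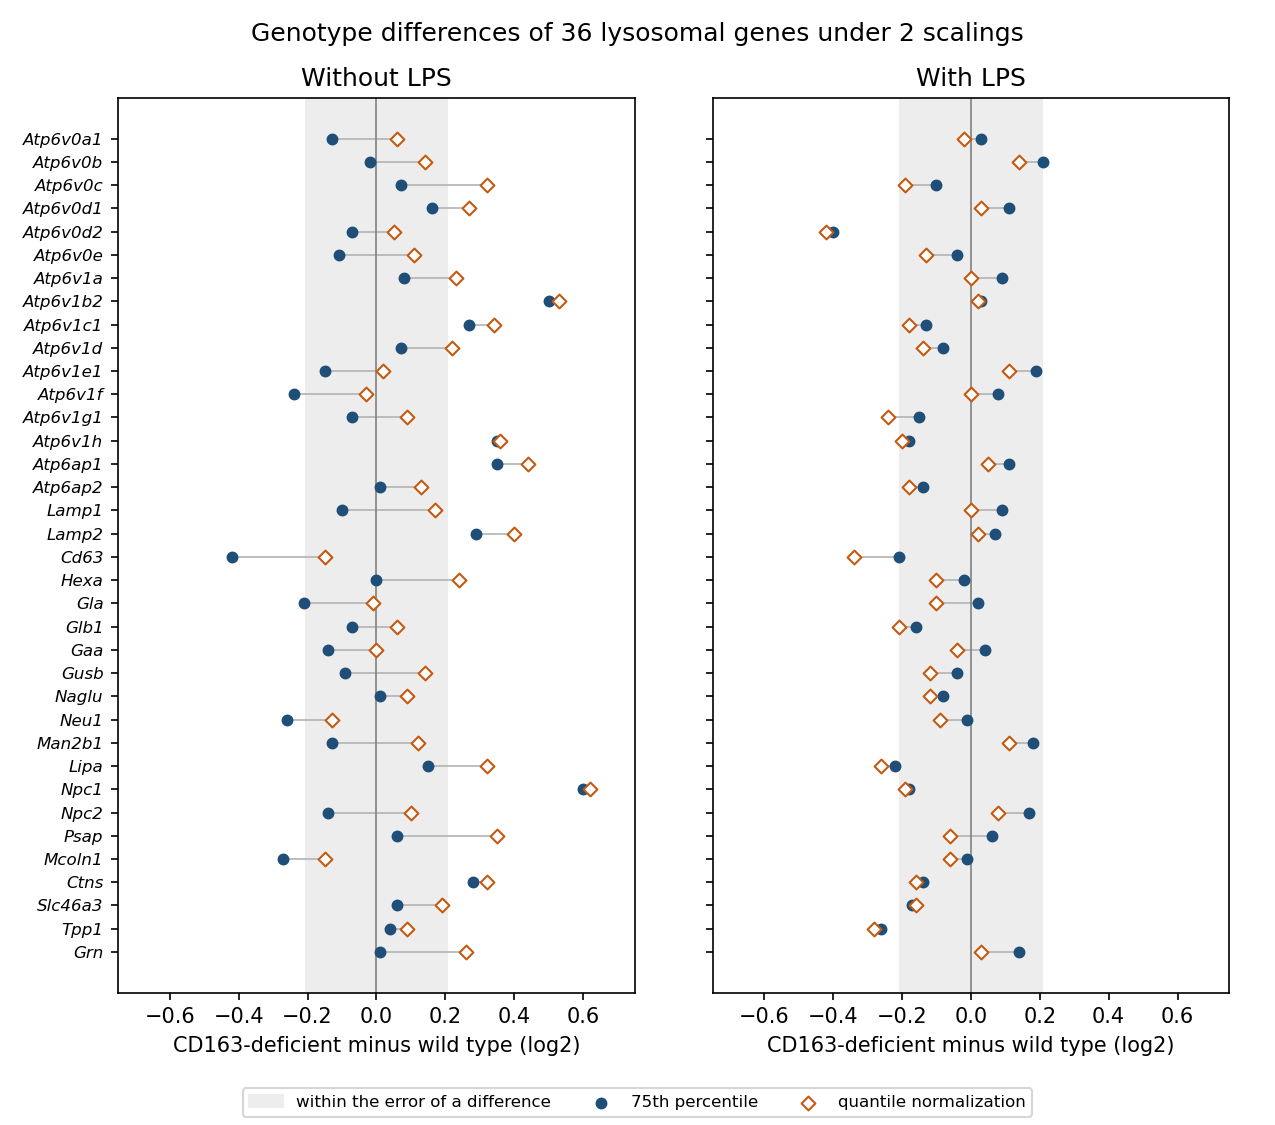
Genotype differences of the 36 genes (log2, CD163-deficient minus wild type) without LPS (left) and with LPS (right), scaled to the 75th percentile (filled circles) or by quantile normalization (open diamonds), with the band of the scanner software's error of 0.20. Without LPS quantile normalization moves most points to the right, to 31 higher and 5 lower, while with LPS it moves most to the left, to 10 higher and 26 lower.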

How the data were processed

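Total RNA was labelled with Cy3 and hybridised to 1-colour Agilent arrays, 1 per group. The scanner files hold spot intensity deposited as processed signal, corrected for background within the array and not scaled between arrays. The Agilent Feature Extraction version is 10.7.1.1 per the file headers and 9.5.1.1 per the submitters' processing notes. The deposited value table also holds intensity, and each of its columns has the same distribution.

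The processed signal was taken as log2, spots of a probe were averaged without outlier flags, and the array's 75th percentile over spots that are not controls was subtracted. Detection asked for 50% or more of a probe's spots well above background. Genes detected on at least 1 array of a pair were compared, an undetected side being set to the higher of its own level and the lowest detected level. With 1 array a group there are no residual degrees of freedom, so genes were counted by size (2-fold) and no test was run. Of the 109 other pathway genes, 103 matched by symbol and 6 by RefSeq accession. The text names all members and, of each other list, up to 6 genes that were 2-fold apart the same way with LPS in both genotypes. Tcirg1, Atp6v0a2 and Acp5 were added after their values were seen. Members and lists were chosen with earlier results of these data known. Counting was tested on simulated data. The alternatives were normexp background correction (offset 50), quantile normalization, scaling to the median detected probe, the mean of a gene's probes, stricter and no detection filters, and the deposited value table. Python 3.11.15, numpy 2.4.6, pandas 2.3.3, R 4.3.3 and limma 3.58.1 were used. Positions of probes are on mm9 and of promoters on GRCm38.p6, and neither was converted.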

Additional observations from a re-analysis of the deposited data

Results flagged for a closer look

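The following members had differences of opposite sign in the comparisons set side by side, with at least 1 of the 2 past the scanner software's error of 0.20. None of these differences was itself tested. The genotype and LPS comparisons share arrays, so a gene can appear under both.

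The LPS difference of Atp6v1h was 0.43 in wild type and -0.11 in the CD163-deficient cells, and that of Npc1 was 0.17 and -0.62. The genotype difference without and with LPS was 0.35 and -0.18 for Atp6v1h and 0.60 and -0.18 for Npc1. Among pump genes it was -0.02 and 0.21 for Atp6v0b, 0.27 and -0.13 for Atp6v1c1, and -0.24 and 0.08 for Atp6v1f. Among the enzymes and the exporter it was -0.21 and 0.02 for Gla, 0.15 and -0.22 for Lipa, 0.28 and -0.14 for Ctns, and 0.04 and -0.26 for Tpp1.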

How the results depend on the processing

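No paired analysis was possible because each group has 1 array and the labels carry no replicate numbers. Of the members at 2-fold, 50 of 50 values under alternatives stayed at 2-fold or more and 0 reversed. These are not 50 separate checks. Lipa, Slc46a3, Man2b1 and Tpp1 have 1 probe each, so the mean of probes repeats their main value. The deposited value table gave nearly the same values as quantile normalization, and scaling to the median detected probe nearly the main ones. With quantile normalization, and with the deposited value table, 8 members were at least 2-fold lower with LPS in CD163-deficient cells, and the median was -0.61. The same settings gave medians of 0.14 for genotype without LPS and -0.26 for the difference between LPS responses. Scaling to the median of detected probes gave a median of 0.00 for genotype with LPS. The cause was not tested. Normexp moved the all-gene median to -0.18 for LPS in wild type and to -0.17 for genotype without LPS. Genes at least 2-fold higher and lower numbered 1054 and 962 with normexp, against 1709 and 1360, for LPS in wild type, and 1283 and 864, against 1898 and 1426, in CD163-deficient cells. For genotype they were 48 and 104, against 326 and 300, without LPS, and 91 and 33, against 334 and 283, with LPS. With no detection filter they were 2613 and 1592, 2373 and 1970, 889 and 661, and 574 and 946 in the same order, and with detection on both arrays the genotype counts were 206 and 189 without LPS and 200 and 159 with it. The number of arrays limits the precision.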
